A study of Homo sapiens with 6 samples.

Results

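The collagen chain genes encode the alpha chains of the collagen family, the main structural proteins of the extracellular matrix. They were taken as every gene whose symbol consists of COL, a number, A and a number. The rule found 44 genes among the 27754 listed in the gene counts of T47D cells. T47D is an established human line of luminal-like breast carcinoma cells, grown here in adherent culture in RPMI medium with serum. RNA sequencing compared 3 normoxia libraries, described by the labels as controls in 20% O2, with 3 hypoxia libraries, described as kept for 48 hours in 0.5% O2. The study's text gives another oxygen level for hypoxia, and gives 48 h for both conditions. No other agent or genetic change was given for either group. The study refers to independent experiments, but the labels only number the libraries, so p-values measure the spread between these libraries, which may be technical.

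Collagen alpha chains assemble by threes into a triple helix inside the endoplasmic reticulum. Prolyl and lysyl residues are first hydroxylated by enzymes that use molecular oxygen, and lysyl oxidases later cross-link the secreted molecules. Fibrillar collagens (types I, II, III, V, XI, XXIV and XXVII) form the fibrils of stroma and cartilage. Network collagens (types IV, VIII and X) form sheets, and type IV is the scaffold of the basement membrane beneath epithelium. Fibril-associated collagens with interrupted triple helices (FACIT) sit on the surface of fibrils, transmembrane collagens span the plasma membrane, and type VI forms beaded filaments. Type VII forms the anchoring fibrils that tie an epithelium to its stroma, and the multiplexins XV and XVIII are proteoglycans of basement membrane zones. In breast tissue, fibroblasts make most of the fibrillar collagen, whereas epithelial cells contribute to the basement membrane.

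Library totals ranged from 32989104 to 40943424 counts in 5 libraries, and hypoxia replicate 3 held 89883409. Counts-per-million (CPM) below are TMM-normalised, and 3 counts corresponded to between 0.0328 and 0.0969 CPM. Such floors and the counting intervals below cover counting error only, because these reads carry no molecular identifiers and may be copies of 1 molecule. VEGFA, a standard hypoxia-induced transcript, was at 36.7, 46.5 and 34.2 CPM in normoxia and at 813, 834 and 764 CPM in hypoxia. Luminal markers had summed levels of 13600 to 18300 CPM in normoxia and 10300 to 13500 CPM in hypoxia over 10 genes, none at 0. KRT8, KRT19 and KRT18 were the highest of them in CPM, and TFF1 was the lowest, at 0.388 to 1.73 CPM. The libraries numbered 3 stood apart in both conditions. VIM, which encodes the mesenchymal filament protein vimentin, had 7 and 12 counts in normoxia replicates 1 and 2 but 395 in replicate 3, and 35 and 35 counts in hypoxia replicates 1 and 2 but 1001 in replicate 3. Results are therefore also given without both libraries numbered 3 where that changed the call of a collagen gene or the count of a gene list.

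To show what lay upstream of the collagen genes that changed, the 250 bases before the first counted base of each of the 44 genes were read from GRCh37, the build of the files, and searched for the core letters bound by hypoxia-inducible factors. The letters searched were ACGTG and GCGTG on both strands. They were present in 16 of the 44 windows (36.4%). The same search found them in 52.9% of the windows of the tested genes and in 44.5% of all 27287 gene windows. Among the collagen genes called below, 5 of the 15 higher genes and both lower genes held a core. These 7 cores are printed with up to 12 flanking bases, 5′ to 3′ on the strand of the gene, with the core or its reverse complement in capitals. The COL12A1 stretch lies at chr6:75915624-75915644 (minus strand), that of COL9A2 at chr1:40783000-40783028 (minus), that of COL16A1 at chr1:32169855-32169883 (minus) and that of COL18A1 at chr21:46824802-46824829 (plus). The COL21A1 stretch lies at chr6:56258957-56258985 (minus), that of COL5A1 at chr9:137533413-137533441 (plus) and that of COL5A2 at chr2:190044622-190044650 (minus).
COL12A1: cccgcagctgccCACGCctcg
COL9A2: caggtgacagctCACGCcggcccccgccc
COL16A1: ggcagctctgggCACGTagggtcccgcct
COL18A1: ctcggggcgggACGTGtccccgtccgtc
COL21A1: tagctttcaggcCACGCccctcccactcc
COL5A1: ccgcgcccgcccCACGTccgctccgcccc
COL5A2: aggcacagagacGCGTGttctgatttggt

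COL17A1, the collagen gene with the highest log2-fold change, held neither core. Its whole window, chr10:105845639-105845888 (minus strand), is printed, and no annotated GENCODE exon lies inside it. GENCODE exons do reach into the windows of COL12A1, COL9A2, COL16A1, COL18A1 and COL5A1. Whether the stretches printed for these genes fall in those exons was not tested. A match to the core letters is a description and not a binding site, and its absence says only that the letters are not in the window searched.
COL17A1: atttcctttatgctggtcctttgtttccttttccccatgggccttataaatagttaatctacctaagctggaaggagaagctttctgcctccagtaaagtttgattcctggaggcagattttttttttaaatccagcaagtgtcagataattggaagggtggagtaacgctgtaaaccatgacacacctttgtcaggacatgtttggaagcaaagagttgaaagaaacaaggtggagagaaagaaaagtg

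By the detection rule, a mean of at least 10 counts over the 6 libraries, 27 of the 44 collagen genes were detected, compared with 15836 of all 27754 genes. COL4A2 (mean of 10.0 counts) and COL24A1 (12.2) lay just inside the rule, and COL6A3 (7.83) and COL13A1 (7.5) lay just outside it. Detected genes were 7 of 11 fibrillar, 6 of 9 network, 2 of 5 beaded filament, 6 of 10 FACIT and 1 of 4 transmembrane genes, with the anchoring fibril gene and both genes of the multiplexin and of the remaining group (COL26A1, COL28A1). COL10A1, a network collagen of hypertrophic cartilage, had 0 counts in every library, and no undetected gene exceeded 24 counts in any library. The plot of levels by library shows this range.

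**Figure D1:**
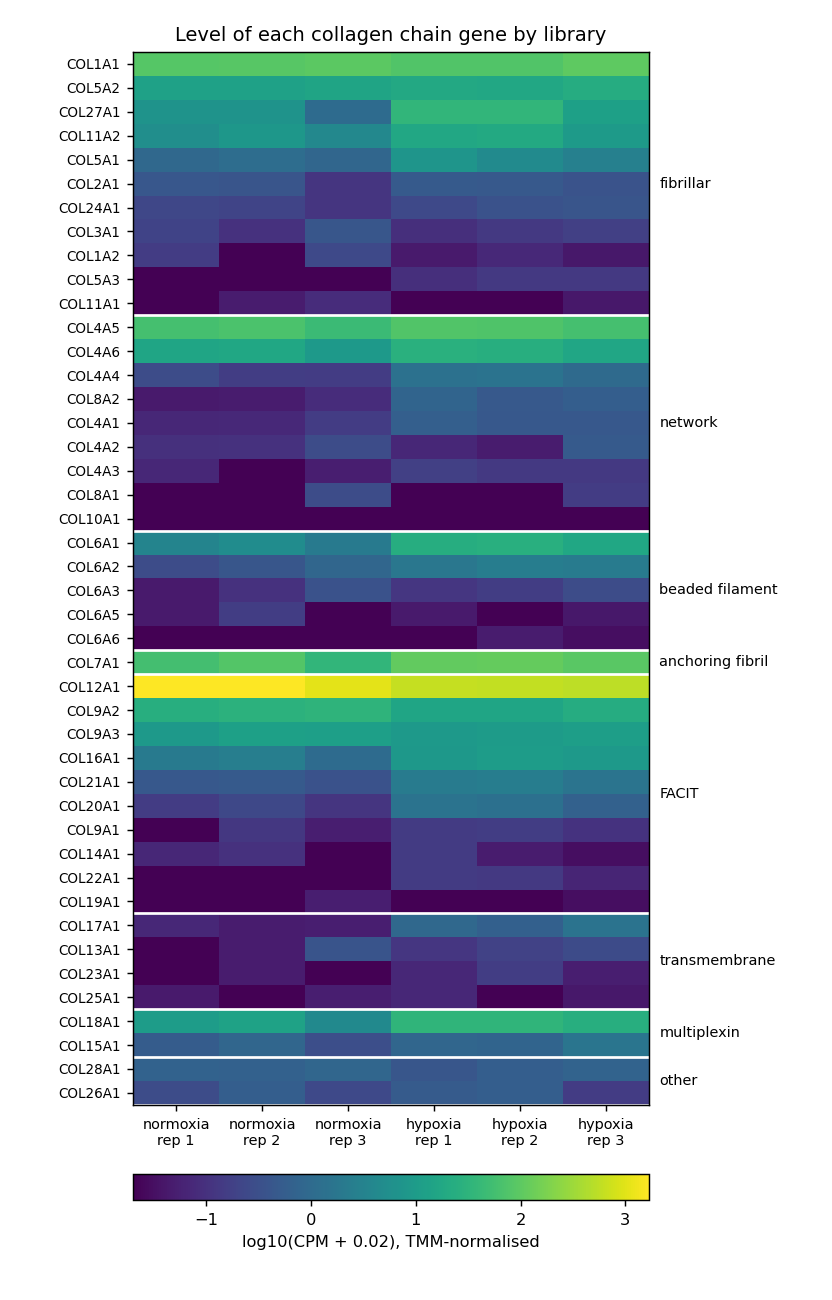
Level of each of the 44 collagen chain genes (rows, grouped by type) in each of the 6 libraries (columns), as log10 of TMM-normalised CPM plus 0.02, with the colour scale below. COL12A1 is the brightest row in every library, and 17 genes, among them COL1A2, COL3A1 and COL10A1, were below the detection rule.

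Levels of single genes were ordered only as CPM per kilobase of counted exon. On this scale COL12A1 was the highest collagen gene by far, at 88.7 on average over the 6 libraries, above 95.8% of the 15657 tested genes. COL1A1 followed at 14.6 CPM per kilobase, then COL4A5 at 9.81, COL7A1 at 8.85 and COL9A2 at 8.15. These 4 levels lay above 68.2%, 58.5%, 55.9% and 53.8% of the tested genes. COL4A5, COL7A1 and COL9A2 cannot be put in an order that holds in both conditions. COL9A2 was at 9.97 ± 1.35 CPM per kilobase (SD, n = 3) in normoxia, above COL4A5 at 8.80 ± 1.79 and COL7A1 at 6.22 ± 2.5, and the spreads of COL9A2 and COL4A5 overlapped. In hypoxia COL7A1 was at 11.5 ± 1.15, COL4A5 at 10.8 ± 1.35 and COL9A2 at 6.33 ± 1.21 CPM per kilobase, and the spreads of COL7A1 and COL4A5 overlapped. COL11A2 was left out of this ordering because its listed length also counts exons on 6 other haplotype sequences.

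Hypoxia was compared with normoxia by edgeR's quasi-likelihood test over all 15657 genes that passed a filter on low counts (about 0.261 CPM in at least 3 libraries). This main fit used condition only and did not pair libraries by replicate number. Of the 25 collagen genes tested, 15 were higher in hypoxia, 2 were lower and 8 were not called at an adjusted p under 0.05. Calls were frequent across the transcriptome. Of all tested genes, 59.5% were called, 30.4% higher and 29.1% lower. The share of collagen genes called in either direction (17 of 25, 68%) was thus near the background, and 15 of those 17 were higher. The median log2-fold change was 1.42 over the 25 collagen genes and 0.03 over all tested genes. With upper-quartile normalization, all tested genes split into 5972 higher and 3285 lower, and the collagen genes into 16 higher and 2 lower. Without both libraries numbered 3, 17 collagen genes were higher and 3 lower, and the share called of all tested genes rose to 71.2%. Since these are bulk samples, a change in the share of cells that express a gene and a change in RNA per cell cannot be told apart.

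The low-count filter favoured the higher calls. COL17A1, COL20A1, COL4A1, COL4A4 and COL8A2 were above the cutoff in no normoxia library and were tested only because of their level in hypoxia. Among the 17 collagen genes above the cutoff in every normoxia library, 9 were higher, 2 lower and 6 not called, with a median log2-fold change of 0.88. This restriction was not applied to all tested genes. Counts and medians given under it, here and for the lists below, therefore have no matching background. COL4A2 and COL24A1 were detected but did not pass the filter.

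**Figure D2:**
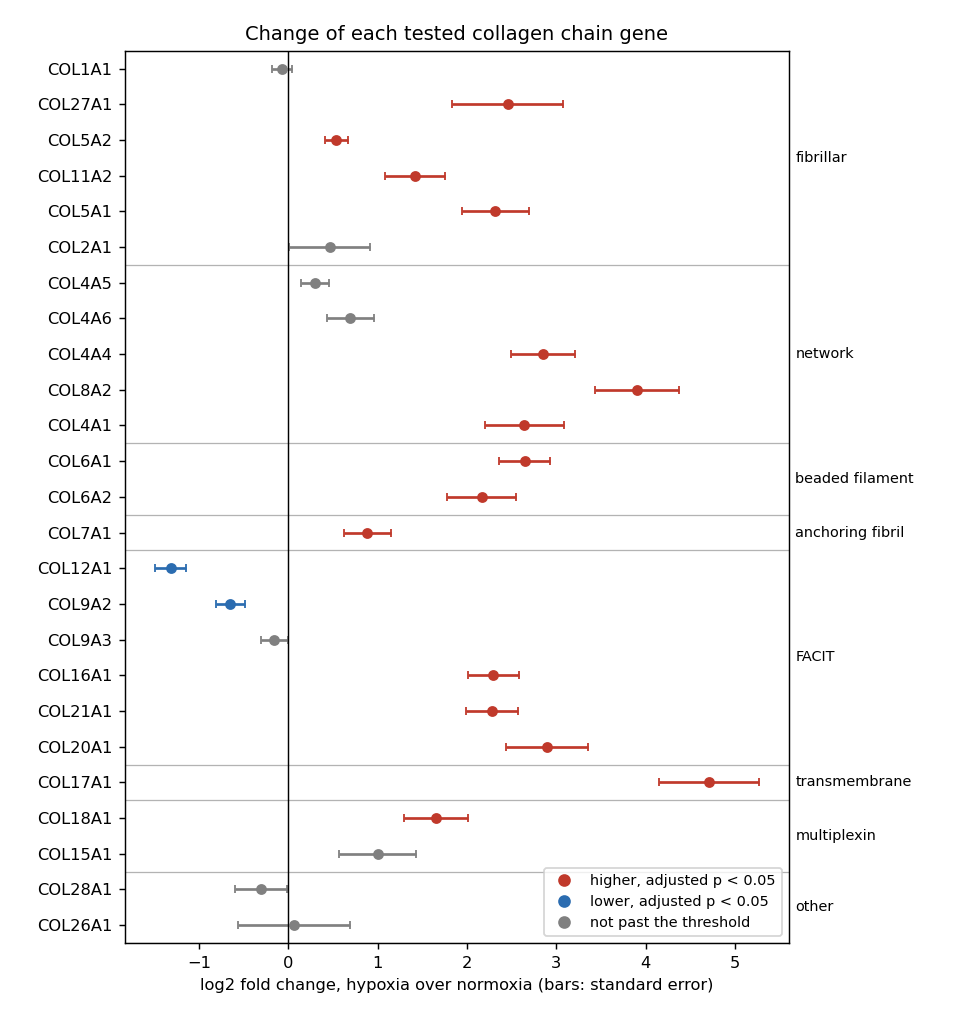
Log2-fold change of hypoxia over normoxia for each of the 25 tested collagen chain genes, grouped by type, from edgeR's quasi-likelihood fit, with bars of 1 standard error. Red points mark the 15 genes called higher, blue points the 2 called lower and grey points the 8 not called.

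Among the fibrillar genes, 4 of the 6 tested rose (COL5A1, COL5A2, COL11A2 and COL27A1), none fell and 2 were not called, with a median log2-fold change of 0.97. COL1A1 (chr17:48261457-48279000), which encodes the main chain of type I collagen, was the highest of them and was not called. It was at 83.9, 87.0 and 95.1 CPM in normoxia and at 76.9, 76.9 and 99.1 CPM in hypoxia, and the ranges overlapped. Its log2-fold change was -0.07 (standard error 0.12, adjusted p = 0.616), and without both libraries numbered 3 it was -0.15 and passed the threshold (adjusted p = 0.0476).

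COL5A1 and COL5A2 encode chains of type V collagen, which nucleates fibrils and limits their diameter. COL5A1 (chr9:137533651-137736688) was at 0.912, 1.13 and 0.840 CPM in normoxia and at 7.26, 4.51 and 2.74 CPM in hypoxia. Every hypoxia library was above every normoxia library, and hypoxia replicate 3 was the lowest of its condition. The log2-fold change was 2.32 (standard error 0.37, adjusted p = 0.00134). COL5A1 shares 94 exonic bases with LOC101448202 on the opposite strand, and the strand setting of the counting is not given in the sources used here. COL5A2 (chr2:189896641-190044605) was at 13, 12.9 and 15.1 CPM in normoxia and at 18.8, 17.7 and 22.7 CPM in hypoxia, so that the groups did not overlap but lay close. Its log2-fold change was 0.53 (standard error 0.13, adjusted p = 0.00847).

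COL11A2 (chr6:33130469-33160245) encodes a chain of type XI collagen, best known from cartilage. It was at 5.32, 8.19 and 4.01 CPM in normoxia and at 17.9, 19.8 and 9.46 CPM in hypoxia. Its log2-fold change was 1.42 (standard error 0.33, adjusted p = 0.00755). COL27A1 (chr9:116917825-117074796), also known from cartilage, was at 6.76, 6.69 and 1.03 CPM in normoxia and at 34.2, 34.2 and 12.3 CPM in hypoxia. Replicate 3 was the lowest library of each condition for both genes, and hypoxia stayed above normoxia in every library. The log2-fold change of COL27A1 was 2.45, with the largest standard error among the higher genes (0.62, adjusted p = 0.0102). COL2A1, the cartilage collagen, had at most 31 counts in a library and was not called (log2-fold change 0.46, adjusted p = 0.410).

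Among the network genes, COL4A1, COL4A4 and COL8A2 rose, and COL4A5 and COL4A6 were not called. The 3 genes that rose had at most 10 counts in a normoxia library, whereas those not called had at least 272 counts in every library. The median log2-fold change of these 5 genes was 2.64, but the genes that rose passed the filter only through hypoxia, and the median of the other 2 was 0.49. COL4A5 (chrX:107683074-107940775) and COL4A6 (chrX:107398837-107682727) encode type IV chains that are found together in the basement membranes of several epithelia. COL4A5 was at 59.9, 67.4 and 44.6 CPM in normoxia and at 77.2, 73.7 and 60.5 CPM in hypoxia, and the ranges overlapped. Its log2-fold change was 0.30 (standard error 0.16, adjusted p = 0.143). COL4A6 was at 16, 16.8 and 8.79 CPM in normoxia and at 26.7, 24.3 and 16.6 CPM in hypoxia. Only hypoxia replicate 3 fell inside the normoxia range, and the log2-fold change was 0.69 (standard error 0.26, adjusted p = 0.0514).

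Both genes were lower in replicate 3 than in replicates 1 and 2 of the same condition, and both passed the threshold when the replicate number was used as a block. The log2-fold changes were then 0.31 for COL4A5 (edgeR adjusted p = 0.00472) and 0.72 for COL4A6 (adjusted p = 0.000235), which gave 5 of 5 tested network genes higher. The block raised the calls among all tested genes from 59.5% to 71.8% as well. The same 5 were called without both libraries numbered 3, where 71.2% of all tested genes were called, with adjusted p-values of 0.0058 for COL4A5 and 1.89e-05 for COL4A6. COL4A6 was also called by edgeR's exact test (adjusted p = 0.0214) and by DESeq2 (adjusted p = 0.0178), as well as without normoxia replicate 2 (adjusted p = 0.0451) or hypoxia replicate 3 (adjusted p = 0.0194).

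COL4A1 (chr13:110801305-110959504) encodes a chain of the most widespread form of type IV collagen. It had 2, 2 and 4 counts in normoxia and 24, 16 and 39 counts in hypoxia. The pooled CPM ratio was 6.31 (95% counting interval 3.05 to 15.1), and the log2-fold change was 2.64 (standard error 0.44, adjusted p = 0.00154). Without both libraries numbered 3, the log2-fold change of COL4A1 was 3.24. COL4A4 (chr2:227867427-228029275), known from the kidney glomerulus, had 10, 5 and 4 counts in normoxia and 56, 55 and 91 counts in hypoxia. Its pooled CPM ratio was 6.79 (4.24 to 11.5), and its log2-fold change was 2.85 (standard error 0.36, adjusted p = 0.000446). COL8A2 (chr1:36560837-36590685), a short-chain collagen of the corneal endothelial basement membrane, had 1, 1 and 2 counts in normoxia and 30, 17 and 53 counts in hypoxia. The pooled CPM ratio of COL8A2 was 16 (6.05 to 59.8), and its log2-fold change was 3.90 (standard error 0.47, adjusted p = 0.000387). For these 3 genes no library of either condition overlapped the other. This separation followed from the filter, which they passed only through hypoxia, and the normoxia levels rest on a few counts.

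COL17A1 (chr10:105791046-105845638) was the only transmembrane gene tested, and it had the highest log2-fold change of the 25 collagen genes. It encodes a hemidesmosome protein that links epithelial cells to the basement membrane. The gene had 2, 1 and 1 counts in normoxia and 36, 23 and 137 counts in hypoxia, or 0.0507, 0.0269 and 0.0323 CPM against 0.889, 0.628 and 1.5 CPM. All normoxia libraries were below the floor of 3 counts, and hypoxia replicate 3 was the highest of its condition. COL17A1 passed the filter only through hypoxia. The pooled CPM ratio was 31.3 (95% counting interval 12 to 116). The log2-fold change was 4.70 (standard error 0.56, adjusted p = 0.000357), and it was 4.18 without both libraries numbered 3. Per kilobase, COL17A1 stayed below COL12A1 and COL1A1 in every hypoxia library. Of the other transmembrane genes, COL13A1 had 0, 1 and 11 counts in normoxia and 4, 6 and 23 counts in hypoxia, most of them in the libraries numbered 3. COL23A1 and COL25A1 had at most 5 and 2 counts in a library.

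Both tested beaded filament genes rose. COL6A1 (chr21:47401663-47424963) encodes an obligate chain of type VI collagen, a microfibril protein found beside basement membranes. It was at 3.32, 4.92 and 2.16 CPM in normoxia and at 23.2, 25.4 and 17.0 CPM in hypoxia. The 2 conditions were far apart, and the log2-fold change was 2.65 (standard error 0.29, adjusted p = 0.000242), or 6.25-fold. COL6A2 (chr21:47518033-47552763), the partner chain, was at 0.253, 0.403 and 0.807 CPM in normoxia and at 1.80, 2.46 and 2.17 CPM in hypoxia. The log2-fold change of COL6A2 was 2.16 (standard error 0.38, adjusted p = 0.00208). COL6A3, the third chain of the classical heterotrimer, had only 1, 3 and 10 counts in normoxia and 4, 5 and 24 counts in hypoxia. It was not detected by the rule and was not tested.

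COL7A1 (chr3:48601506-48632593), the anchoring fibril gene, was at 55.8, 80.5 and 34.8 CPM in normoxia and at 109, 114 and 93.5 CPM in hypoxia. The conditions did not overlap, and normoxia varied more than hypoxia. The log2-fold change was 0.88 (standard error 0.26, edgeR adjusted p = 0.0196). This call was lost, at nearly the same fold, when normoxia replicate 1 (adjusted p = 0.0546), hypoxia replicate 1 (adjusted p = 0.0544) or hypoxia replicate 2 (adjusted p = 0.0564) was left out.

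**Figure D3:**
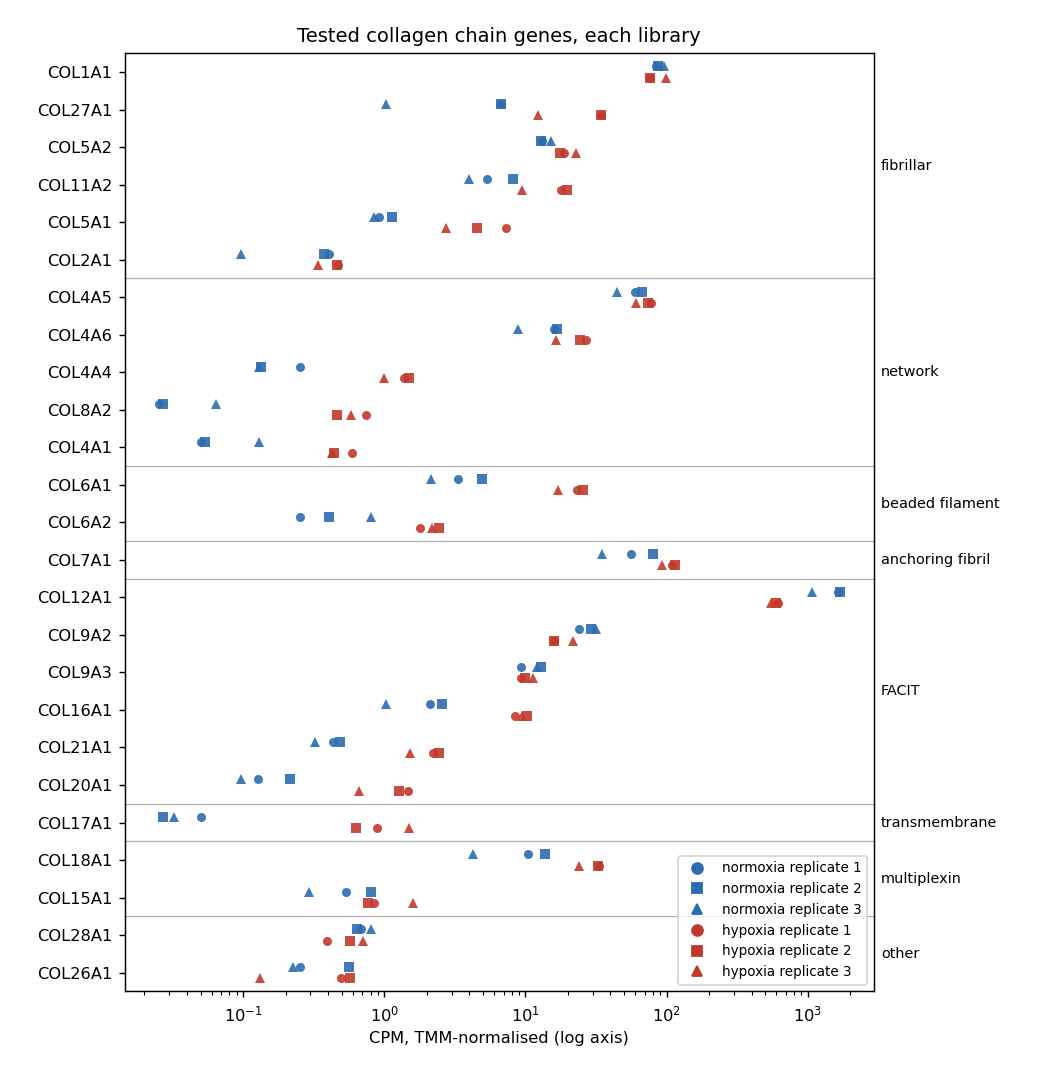
TMM-normalised CPM of the 25 tested collagen chain genes in each library on a log axis, with normoxia in blue, hypoxia in red, and the replicate number shown by the marker. The red points of COL17A1 lie above all of its blue points, which followed from the low-count filter, passed by this gene only through hypoxia. The ranges of COL1A1, COL4A5 and COL9A3 overlap.

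The FACIT genes moved in both directions, with 3 of the 6 tested higher, 2 lower and 1 not called. The median log2-fold change was 1.06, and it was -0.16 over the 5 genes above the cutoff in every normoxia library. COL12A1 (chr6:75794042-75915623) encodes type XII collagen, which bridges fibrils to other matrix components. It was at 1650, 1680 and 1070 CPM in normoxia and at 620, 596 and 546 CPM in hypoxia. Normoxia replicate 3 was the lowest of its condition but remained above all hypoxia libraries, which lay close together. The log2-fold change of COL12A1 was -1.32 (standard error 0.17, adjusted p = 0.000512), or 0.400-fold.

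COL9A2 (chr1:40766163-40782939) and COL9A3 encode chains of type IX collagen, a coat protein of cartilage fibrils. COL9A2 was at 24.0, 29.2 and 31.5 CPM in normoxia and at 15.9, 16 and 21.9 CPM in hypoxia. Replicate 3 was the highest of each condition, the groups did not overlap, and the log2-fold change was -0.65 (standard error 0.16, adjusted p = 0.00877). COL9A3 was at 9.30, 12.8 and 12.1 CPM in normoxia and at 9.28, 10.0 and 11.3 CPM in hypoxia. It was not called, with a log2-fold change of -0.16 (adjusted p = 0.395). Whether COL9A2 and COL9A3 changed differently was not tested. COL9A3 shares 146 exonic bases with TCFL5 on the opposite strand.

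The 3 FACIT genes that rose were at 2.55 CPM or less in every normoxia library. COL16A1 (chr1:32117848-32169768), a collagen found near basement membranes and in fibrils, was at 2.10, 2.55 and 1.03 CPM in normoxia and at 8.47, 10.3 and 9.38 CPM in hypoxia. The fitted log2-fold change was 2.29 (standard error 0.29, adjusted p = 0.000448). COL21A1 was at 0.431, 0.484 and 0.323 CPM in normoxia and at 2.20, 2.43 and 1.52 CPM in hypoxia. Its log2-fold change was 2.28 (standard error 0.29, adjusted p = 0.000486), and in both conditions replicate 3 was the lowest library. COL20A1 had 5, 8 and 3 counts in normoxia and 60, 47 and 61 counts in hypoxia, with a pooled CPM ratio of 6.71 (4.01 to 12) and a fitted log2-fold change of 2.90 (standard error 0.46, edgeR adjusted p = 0.00125).

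COL18A1 (chr21:46825052-46933634), the multiplexin whose C-terminal fragment is endostatin, was at 10.4, 13.7 and 4.26 CPM in normoxia and at 33.1, 32.6 and 23.9 CPM in hypoxia. Replicate 3 was again the lowest of each condition, and the conditions did not overlap. The log2-fold change was 1.65 (standard error 0.36, adjusted p = 0.00519). COL18A1 shares 2308 exonic bases with SLC19A1 on the opposite strand. SLC19A1 had 1424, 1120 and 1604 counts in normoxia and 785, 651 and 2448 counts in hypoxia, compared with 409, 511 and 132 against 1340, 1192 and 2190 counts for COL18A1. Reads from the shared bases cannot be assigned here without the strand setting.

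COL15A1, the other multiplexin, was at 0.532, 0.806 and 0.291 CPM in normoxia and at 0.840, 0.765 and 1.61 CPM in hypoxia. It had a log2-fold change of 1.00 (standard error 0.43) and was not called (adjusted p = 0.0771). Without normoxia replicate 2 the value was 1.37 and passed the threshold (adjusted p = 0.0437), whereas without both libraries numbered 3 it was 0.28 (adjusted p = 0.452). COL26A1 and COL28A1, which fit none of the types above, were not called. COL28A1 was at 0.684, 0.645 and 0.807 CPM in normoxia and at 0.395, 0.574 and 0.711 CPM in hypoxia, and the ranges overlapped (log2-fold change -0.31, standard error 0.295, adjusted p = 0.392). COL26A1 had at most 21 counts in a library (log2-fold change 0.06, adjusted p = 0.937).

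COL12A1 made up most of the summed CPM of the family in every library. These sums and shares are not divided by gene length, so a long gene such as COL12A1 (11579 bases) weighs more. The shares therefore do not order the genes by level. All collagen genes together were at 1945, 2033 and 1327 CPM in normoxia (1768 ± 385, SD, n = 3) and at 1091, 1069 and 959.6 CPM in hypoxia (1040 ± 70.4). Without COL12A1 the order of the conditions was opposite, with 295, 348 and 260 CPM in normoxia (301 ± 44.3) and 470, 472 and 413 CPM in hypoxia (451.7 ± 33.5). For neither sum did the conditions overlap. COL12A1 took 84.9%, 82.9% and 80.4% of all collagen counts in normoxia and 56.9%, 55.8% and 56.9% in hypoxia. The share of COL7A1 was 3.15% ± 0.713 in normoxia and 10.14% ± 0.497 in hypoxia, and that of COL4A5 was 3.253% ± 0.151 and 6.763% ± 0.403. COL6A1 went from 0.192% ± 0.0435 to 2.097% ± 0.301 of the collagen counts, and COL18A1 from 0.5097% ± 0.178 to 2.863% ± 0.315. COL1A1, whose CPM did not pass the test, took 5.257% ± 1.66 and 8.183% ± 1.83. Shares of a sum are tied to each other, so a smaller COL12A1 share raises the rest by construction.

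**Figure D4:**
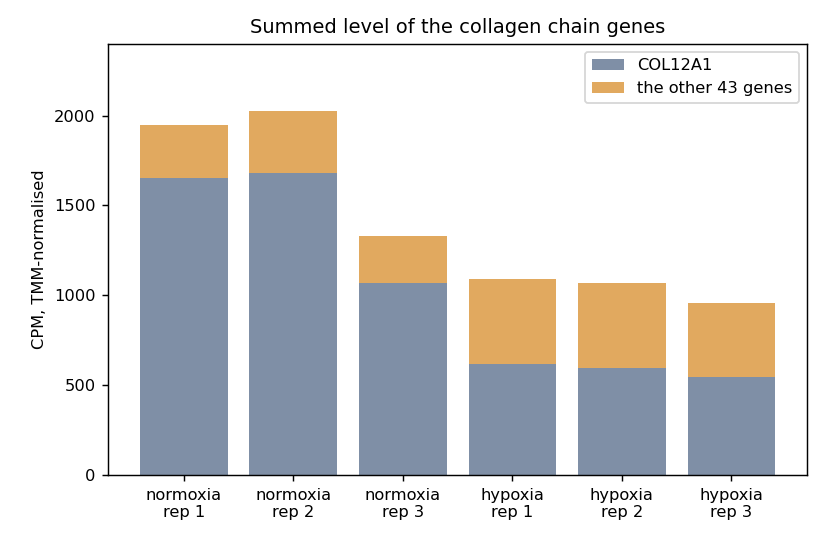
Summed TMM-normalised CPM of the collagen chain genes in each library, as stacked bars starting at 0, with COL12A1 below and the other 43 genes above. The COL12A1 part is smaller in all 3 hypoxia libraries, at most 620 CPM against at least 1070 CPM, while the rest is larger, at least 413 CPM against at most 348 CPM.

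Several collagens need chains from more than 1 gene, so the levels of partner chains were set side by side per kilobase of counted exon, as a description. Type I collagen is usually built from chains of COL1A1 and COL1A2. COL1A2 had 5, 0 and 7 counts in normoxia and 1, 2 and 2 counts in hypoxia, against 2814 to 9062 counts of COL1A1. COL3A1, the type III fibrillar gene, had 7, 3 and 12 counts in normoxia and 3, 4 and 14 counts in hypoxia. Of the type I genes, COL1A1 alone was thus present at more than a few counts.

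Per kilobase, COL5A2 was at 17.5, 14.0 and 22.1 times the level of COL5A1 in normoxia and at 3.19, 4.81 and 10.1 times in hypoxia, so the 2 transcripts were closer in hypoxia. COL6A1 was at 13.5, 12.5 and 2.75 times the level of COL6A2 in normoxia and at 13.2, 10.6 and 8.08 times in hypoxia, and normoxia replicate 3 stood apart. The COL9A2 to COL9A3 ratio was 2.27, 2.00 and 2.29 in normoxia and 1.5, 1.4 and 1.71 in hypoxia, while COL9A1, the remaining chain of type IX, had at most 8 counts in a library.

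The type IV genes lie as 3 pairs, each pair head to head. In the annotation of the files, 110 bases separate the 5′ ends of COL4A1 and COL4A2 on chromosome 13, 6 bases those of COL4A3 and COL4A4 on chromosome 2, and 347 bases those of COL4A5 and COL4A6 on chromosome X. COL4A5 was per kilobase at 3.96, 4.24 and 5.37 times the level of COL4A6 in normoxia and at 3.05, 3.21 and 3.85 times in hypoxia, and the ranges did not overlap. COL4A3 had 2, 0 and 1 counts in normoxia and 6, 4 and 10 counts in hypoxia. Its pooled CPM ratio was 4.26 (1.26 to 22.4), beside 6.79 for COL4A4. For both genes every hypoxia library was above every normoxia library in CPM, which for COL4A4 followed from the filter. COL4A2 had 3, 3 and 8 counts in normoxia and 2, 1 and 43 counts in hypoxia. It was therefore not higher in hypoxia replicates 1 and 2, where its neighbour COL4A1 had 24 and 16 counts, and nearly all of its hypoxia counts came from replicate 3.

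**Figure D5:**
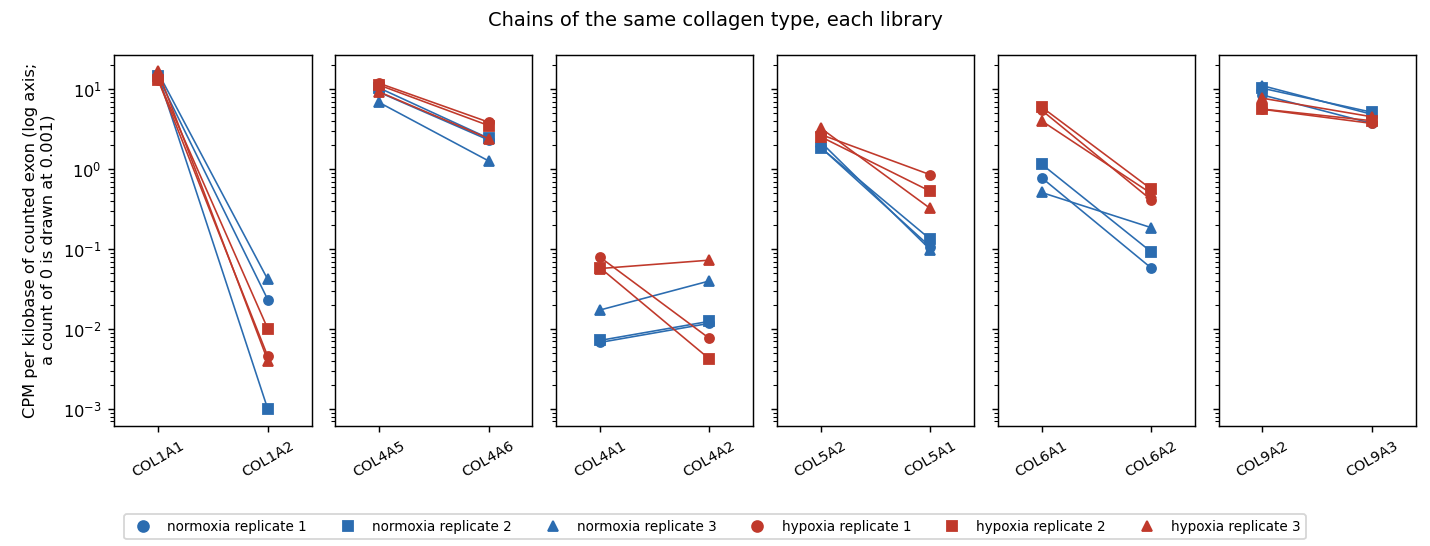
TMM-normalised CPM per kilobase of counted exon (log axis) for 6 pairs of genes that encode chains of the same collagen type, with a line for each library, normoxia in blue and hypoxia in red. COL1A2 lies far below COL1A1 in all 6 libraries (the normoxia library with 0 counts is drawn at 0.001), and COL4A2 lies above COL4A1 in all 3 normoxia libraries and in hypoxia replicate 3 only.

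Of the 17 undetected genes, COL5A3 had 0 counts in every normoxia library and 3, 4 and 10 counts in hypoxia, and COL22A1 had 0 counts in normoxia and 5, 4 and 4 counts in hypoxia. The exact 95% counting interval of the pooled CPM ratio, hypoxia over normoxia, began at 2.64 for COL5A3 and at 1.95 for COL22A1. COL8A1, the partner of COL8A2, was counted only in the libraries numbered 3, with 8 counts in normoxia and 12 in hypoxia. The highest counts of the others were 14 for COL3A1, 24 for COL6A3, 23 for COL13A1, 10 for COL4A3, 8 for COL9A1, 7 for COL1A2, and 5 for COL6A5, COL14A1 and COL23A1. COL11A1, COL25A1, COL6A6 and COL19A1 had at most 2 counts in any library. The detected but untested COL24A1, a fibrillar gene, had 8, 7 and 3 counts in normoxia and 9, 12 and 34 counts in hypoxia.

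Genes that process collagen were taken from a list of 29 that covers the hydroxylases, chaperones, procollagen proteinases and lysyl oxidases. Of the 26 tested, 15 were higher in hypoxia, 1 lower and 10 not called, with a median log2-fold change of 1.05. The share called, 61.5%, was near the 59.5% of all tested genes. ADAMTS2, ADAMTS14, PCOLCE2 and LOXL4 passed the filter only through hypoxia, and over the 20 genes above the cutoff in every normoxia library, 10 were higher, 1 lower and 9 not called (median 0.42). With the replicate block 17 of the 26 were higher and 3 lower, and 71.8% of all tested genes were called. Without both libraries numbered 3, 18 were higher and 3 lower, and 71.2% of all tested genes were called. PLOD2, a lysyl hydroxylase, went from 218 ± 6.25 to 544 ± 34.7 CPM (log2-fold change 1.32, adjusted p = 3.9e-05). P4HA1, the catalytic subunit of a prolyl hydroxylase, went from 43.4 ± 6.92 to 351 ± 65.0 CPM (log2-fold change 3.02, adjusted p = 3.9e-05). PLOD1 went from 86.1 ± 4.43 to 162 ± 8.85 CPM (log2-fold change 0.91). The single lower gene without the block was the prolyl 3-hydroxylase gene P3H3 (log2-fold change -0.84, adjusted p = 0.00777), and PPIB and COLGALT1 were also lower with the block. The collagen chaperone SERPINH1 was at 136 ± 19.8 and 137 ± 8.84 CPM and was not called (adjusted p = 0.964), and neither was the hydroxylase subunit P4HB (log2-fold change 0.22, adjusted p = 0.0581), which passed the threshold with the block (adjusted p = 0.00673). The lysyl oxidase gene LOX had the largest log2-fold change of the 26 (5.45, edgeR adjusted p = 1.7e-05). It went from 1.47 ± 0.556 to 65.2 ± 8.17 CPM. Genes of this list other than PLOD2, P4HA1 and PLOD1 were named after their values were seen.

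Among 8 tested genes of 10 for collagen receptors, 5 were higher, none was lower and 3 were not called (median log2-fold change 0.62), and 6 were higher without both libraries numbered 3. The receptor tyrosine kinase gene DDR1 went from 762 ± 44.6 to 1110 ± 107 CPM (log2-fold change 0.54, adjusted p = 0.00204). ITGA2, the collagen-binding integrin alpha chain of epithelia, went from 41.3 ± 4.33 to 67.1 ± 1.51 CPM (log2-fold change 0.70). MRC2, which encodes an endocytic collagen receptor, went from 0.566 ± 0.127 to 5.85 ± 0.285 CPM (log2-fold change 3.35). Of 12 tested genes of 16 for laminins and other basement membrane partners, 5 were higher, 2 lower and 5 not called (median log2-fold change 0.17). LAMC3, called higher, passed the filter only through hypoxia. Over the 10 partner genes above the cutoff in every normoxia library, 3 were higher, 2 lower and 5 not called (median 0.09). Over the whole partner list, 5 were higher and 3 lower with the block, or without both libraries numbered 3. The block called 71.8% of all tested genes, and the fit without both libraries numbered 3 called 71.2%. The shares called, 62.5% of receptor genes and 58.3% of basement membrane partners, were near that of all tested genes. The laminin chains LAMC1 and LAMB1 fell, from 187 ± 8.84 to 149 ± 11.7 CPM and from 111 ± 8.98 to 82 ± 10.2 CPM. LAMB2 rose from 300 ± 17.9 to 396 ± 25.0 CPM (log2-fold change 0.40, adjusted p = 0.00405).

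Markers of cells other than luminal epithelium were set beside the collagen results. Of 10 mesenchymal markers, 3 were tested and 2, PDGFRB and THY1, were higher in hypoxia, both tested only through their level in hypoxia. Their summed level was 0.456, 0.564 and 13.3 CPM in normoxia and 2.35, 2.65 and 12.6 CPM in hypoxia. PDGFRA was at 0 in every library and the fibroblast gene DCN had at most 1 count. VIM made up most of the sum in the libraries numbered 3. Of 10 genes that mark basal or mesenchymal-like breast cell lines, 7 were tested and 4 were higher. Of these 4, KRT17 was tested only through its level in hypoxia. The summed levels of the 10 genes were 189 to 194 CPM in normoxia and 231 to 301 CPM in hypoxia. LGALS1, which was not called, made up most of these sums. Without it they were 4.51, 5.73 and 11.3 CPM in normoxia and 43.7, 42.8 and 54.4 CPM in hypoxia. No endothelial marker of 4 was tested, and their sum was at most 0.547 CPM. Of the 10 luminal markers, 1 was higher, 5 were lower and 4 were not called. ESR1, with the largest fall of these, went from 271 ± 26.3 to 74.5 ± 0.599 CPM. Of the marker genes tested, 60% of luminal, 57.1% of basal and 66.7% of mesenchymal ones were called, beside 59.5% of all tested genes. The part of these marker changes in the collagen results was not tested. Without both libraries numbered 3, the calls of the 15 higher and the 2 lower collagen genes held, in a fit that called 71.2% of all tested genes. The basal sums without LGALS1 were also higher in hypoxia in replicates 1 and 2, so that fit does not test their part.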

How the data were processed

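The authors prepared stranded mRNA libraries, sequenced them on an Illumina HiSeq, trimmed adapters with Skewer, mapped reads with STAR on hg19 (GRCh37), ran featureCounts on the RefSeq annotation, and deposited the raw counts per gene in 1 file per library. The submitters' processing notes list FastQC 0.11.5, STAR 2.5.2a and featureCounts 1.5.1. How the counter treated strand and multimapping reads is not given in the sources used here.

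The deposited counts of 3 normoxia and 3 hypoxia libraries, grouped by their labels, were analysed with R 4.3.3 and edgeR 4.0.16 (filterByExpr set to min.count 10 and min.total.count 15, TMM, quasi-likelihood test, Benjamini-Hochberg adjustment over 15657 genes at 0.05). The study names edgeR's exact test for paired samples. The exact test was run here as an alternative, without pairing. Other alternatives were DESeq2 1.42.0 on the same counts, other normalizations, filters and thresholds, a replicate block, and libraries left out. Deviations from the condition means were correlated between same-numbered libraries (correlations across genes of 0.426, 0.495 and 0.624). The replicate number was therefore used as a block in an alternative fit, while the main fit used condition only. The block lowered the biological coefficient of variation from 0.141 to 0.0751. Only the quasi-likelihood test on condition was tried on simulated data. The simulation used a common dispersion and no replicate effect, so it does not bear on the block or the other tests.

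The collagen genes and all lists were chosen with earlier results of these data known. Every collagen gene that passed the filter was named with its values, with fewer details below 50 counts in every library. Of the other lists, the 3 called genes with the highest mean CPM were named. Ratios of pooled CPM carry exact 95% binomial counting intervals.

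Exon positions were taken from the files. Of 4142 exon ends of the collagen genes, 4060 were in GENCODE v44lift37. Sequence was read from GRCh37. Python 3.11.15 with matplotlib 3.10.9 drew the figures. Fold changes are hypoxia over normoxia, and SDs are over 3 libraries.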

Additional observations from a re-analysis of the deposited data

How the results depend on the processing

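No call of a collagen gene reversed under the alternatives run. Over the 25 tested genes and the other tests, normalizations, filters, block and sets of libraries, 358 fits kept the call, 3 lost it (all COL7A1) and 14 gained it. Of the stricter thresholds, an adjusted p under 0.01 left 13 higher and 2 lower collagen genes, without COL7A1 and COL27A1. With the replicate number as a block, 5 network genes were called in place of 3, through COL4A5 and COL4A6, and the block changed no other collagen call. Leaving out both libraries numbered 3 also gave 5. The block called 71.8% of all tested genes, and leaving out those libraries 71.2%. A further limit of 1 on the size of the log2-fold change left 13 higher collagen genes, without COL5A2 and COL7A1, 1 lower collagen gene (COL12A1), 3 receptor genes, 3 basement membrane partner genes, and 2373 higher and 768 lower genes in all. The median log2-fold change of the tested collagen genes, 1.42 as reported, was 1.57 with upper-quartile factors, 0.88 with no filter on low counts and 0.99 with the filter on mean count. It ranged from 0.96 to 1.68 when each library was left out in turn, the lowest without normoxia replicate 3 and the highest without hypoxia replicate 3. The 2 filters test other sets of genes, and the cause of the other shifts was not tested. Upper-quartile factors moved the median of all genes by 0.157 and library size alone by 0.116. Counts in normoxia limit the genes near the floor, such as COL17A1 and COL8A2.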
